A study of Mus musculus with 2 samples.

Results

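The Asb genes encode proteins with ankyrin repeats and a C-terminal SOCS box, and Asb4 is the member that differed between posterior and anterior limb bud tissue of the mouse embryo. A list of 10 members (Asb1, Asb2, Asb3, Asb4, Asb5, Asb6, Asb7, Asb8, Asb11 and Asb13) was matched to probe sets that the platform annotation gives exactly 1 gene symbol, and 9 of the 10 were found among 14860 genes so measured. Asb2, known from muscle and blood cells, had no such probe set in the annotation used here and has no value. Asb4 heads the list because of its difference between these same arrays, so its values are a description and not evidence. The tissue came from wild-type CD1 embryos, an outbred stock, at embryonic day 10.5, and no allele or treatment is named for either tissue. Limb buds were cut along the midline, the tissue was pooled, with 8 litters named as its source, and the posterior pool and the anterior pool were hybridised to 1 Affymetrix array each. With 1 array a tissue there is no replicate and no test of a gene, and precision is limited by this number of arrays. Whether the buds were forelimbs, hindlimbs or a mixture is not labelled.

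Asb proteins act as substrate receptors of ubiquitin ligases. The ankyrin repeats bind the protein to be marked, and the SOCS box binds elongin B, elongin C and cullin 5, which bring in the RING protein Rnf7 and the rest of the enzyme. Asb4 is also an imprinted gene of the mouse, expressed mainly from the maternal copy, and is known from the vessels of the embryo, from placenta and from hypothalamus.

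Levels are RMA values on the log2 scale, and each difference is posterior minus anterior, so that a negative difference means a lower level in posterior tissue. A detection floor of 5.06 was set at the 95th percentile of 852 genes not known from limb buds, namely receptors for odours, pheromones and bitter taste and beta-defensins. A gene with at least 1 value above the floor is called detected. The threshold of 1.3-fold, a log2 difference of 0.38, is the one the submitters used. The local spread given beside a difference is the robust standard deviation of the differences of 500 genes of the closest mean level, which describes scatter between these arrays and is not a replicate error. Ptch1, a Hedgehog target of posterior mesenchyme, had a level of 8.58 in posterior and 7.41 in anterior tissue. Gli3, a transcription factor of the Hedgehog pathway, had 8.56 in posterior and 9.11 in anterior tissue. The labels name the tissues only, and these are the directions known for both genes in such tissues. Shh and Hand2 were also higher and Alx4 lower in posterior tissue, each past 1.3-fold by its measured values.

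Asb4 had a level of 10.20 in posterior tissue, against 11.21 in anterior tissue. It was 2.01-fold lower in posterior tissue (log2 difference -1.01, local spread 0.07), and both values lay far above the floor. The gene was thus strongly detected on both sides of the limb bud and differed in amount. Of all 14860 genes, 30 lay further toward anterior tissue than Asb4, and 66 had a larger difference in either direction. Among the 1996 genes with a mean level of 8 or more, 1 gene, Lhx9, had a larger difference, toward anterior tissue. Among the 886 genes with a mean level of 9 or more, 3 were past 1.3-fold toward anterior and 1 toward posterior tissue, and none of the 886 had a larger difference than Asb4 in either direction. Among the 500 genes closest to Asb4 in mean level, 1 gene was past 1.3-fold toward anterior tissue, which was Asb4 itself, and 1 toward posterior tissue. The next largest anterior lean of these 500 was that of Nop53, named here after its value was seen, at -0.37. Asb4 was chosen for its difference between these same arrays, so nothing is read from its place among these genes.

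The windows around the annotated starts of Asb4 are shown because it is the member that differed, with the first start of Asb5 for comparison, since it too held TAATTA, the core bound by many homeodomain proteins. Start windows were matched for 9 of the 10 members, all but Asb3, and among the windows of these 9 only the first of Asb4 and the first of Asb5 held TAATTA. Each window runs from 250 bases before to 50 bases after the start and is taken from RefSeq on build GRCm38.p6, which is not the build of the arrays. Capitals mark TAATTA, the CCAAT box (CCAAT) and the TATA box (TATAAA) on either strand.
Asb4 first start, chr6:5383136-5383435, plus strand: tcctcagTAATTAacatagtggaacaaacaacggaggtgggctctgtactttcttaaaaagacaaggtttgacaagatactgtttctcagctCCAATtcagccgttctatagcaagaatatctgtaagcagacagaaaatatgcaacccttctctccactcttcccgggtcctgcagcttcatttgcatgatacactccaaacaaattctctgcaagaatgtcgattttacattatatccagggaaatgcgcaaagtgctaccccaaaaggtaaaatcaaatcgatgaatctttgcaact
Asb4 second start, chr6:5390160-5390459, plus strand: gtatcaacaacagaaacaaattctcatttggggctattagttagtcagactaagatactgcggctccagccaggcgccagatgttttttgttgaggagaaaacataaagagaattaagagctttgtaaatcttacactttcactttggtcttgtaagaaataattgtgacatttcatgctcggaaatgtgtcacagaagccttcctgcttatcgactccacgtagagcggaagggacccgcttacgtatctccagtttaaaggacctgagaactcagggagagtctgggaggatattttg
Asb5 first start, chr8:54550081-54550380, plus strand: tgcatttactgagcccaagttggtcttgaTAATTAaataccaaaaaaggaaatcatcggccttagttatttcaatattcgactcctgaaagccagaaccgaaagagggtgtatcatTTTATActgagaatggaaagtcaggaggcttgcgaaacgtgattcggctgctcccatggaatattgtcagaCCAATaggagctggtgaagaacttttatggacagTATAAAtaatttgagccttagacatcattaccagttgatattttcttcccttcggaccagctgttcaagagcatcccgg

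The first Asb4 window held 1 TAATTA at position -243 and 1 CCAAT at position -158 from the start, and the second Asb4 window held neither. Of 32851 windows of this length in the table, 5.29% held TAATTA, 37.4% CCAAT and 13.6% TATAAA. Neither Asb4 window held TATAAA, the GC box GGGCGG (35.7% of all windows) or CCACCCA, the core of sites bound by Gli proteins (9.30% of all windows), which says only that these letters are not in these windows. None of these motifs overlapped another in the windows shown. The first Asb5 window held TATAAA at positions -134 and -29. The first Asb4 window was 40.3% G and C with a ratio of observed to expected CpG of 0.50, and the second was 42.3% with 0.60, against medians of 52.7% and 0.38 over all windows. Asb6 (0.82), Asb13 (0.79), the second start of Asb8 (0.90) and the first start of Asb5 (0.64) had higher CpG ratios than either Asb4 window. Asb7 (0.56) lay between the Asb4 windows, and the first start of Asb8 (0.19) lay below both. Asb1, which was not detected, had ratios of 0.82 and 0.87, so a high ratio in the window was not limited to detected members.

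**Figure D1:**
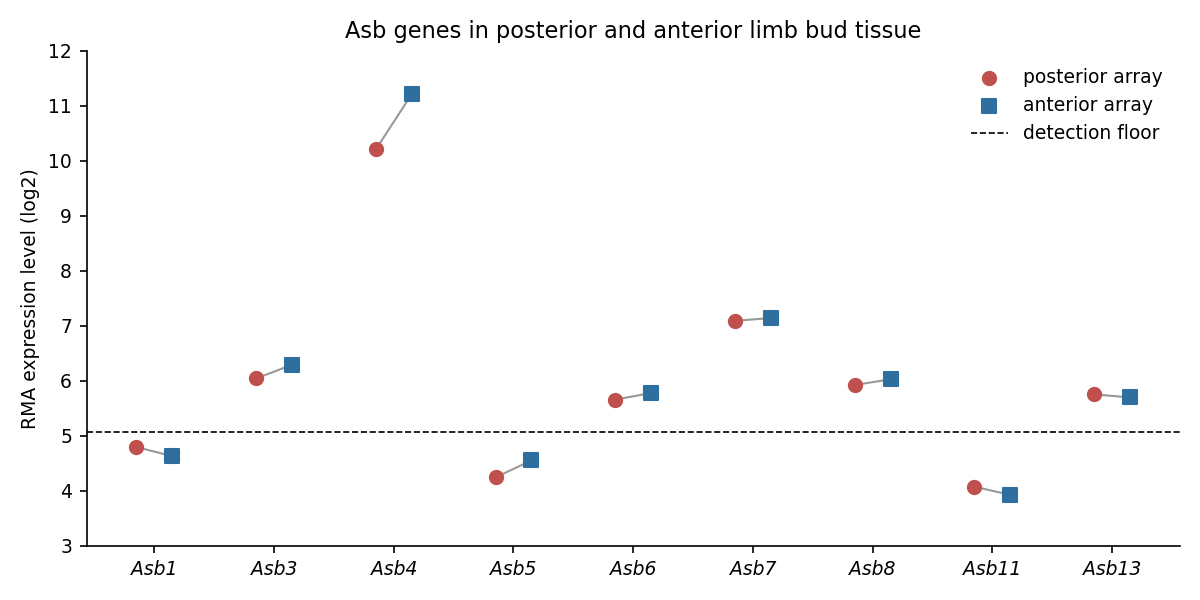
RMA level (log2) of the 9 measured Asb genes in the posterior array (circles) and the anterior array (squares), with the detection floor as a dashed line. Asb4 is the only gene with widely separated points, 10.20 in posterior and 11.21 in anterior tissue, and Asb1, Asb5 and Asb11 lie under the floor in both; probe sets differ in brightness, so heights of different genes are not to be compared.

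Past 1.3-fold, Asb4 stood alone among the 9 measured members: 1 was lower and 0 were higher in posterior tissue by that much. Of all genes 4.8% were past 1.3-fold toward anterior and 3.77% toward posterior tissue, or 8.57% in either direction; among the 9017 detected genes the share in either direction was 6.53%. Nothing is read from the 1 of 9, since Asb4 was chosen on this difference. The median difference of the 9 members was -0.10, beside -0.04 over all genes. Without Asb4, the 8 remaining members had a median of -0.08 and lay between -0.31 and 0.17.

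Of the members, 6 were detected, all 6 above the floor in both arrays. Asb3 had a level of 6.04 in posterior and 6.29 in anterior tissue (log2 difference -0.25, local spread 0.17). In human cells ASB3 is known to target the receptor TNFR2 for degradation. It was the detected member nearest to the threshold, and it stayed under 1.3-fold at 1.19-fold lower in posterior tissue.

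Asb7 had a level of 7.09 in posterior and 7.14 in anterior tissue (difference -0.05). In human cells ASB7 is known to act on a protein of the mitotic spindle. Asb8 had a level of 5.92 in posterior and 6.03 in anterior tissue (difference -0.10). Asb6, known in mouse fat cells as a partner of the insulin-signalling adaptor Sh2b2, had a level of 5.66 in posterior and 5.78 in anterior tissue (difference -0.12). For these 3 genes the difference was smaller than the local spread, which was 0.13 for Asb7, 0.18 for Asb8 and 0.17 for Asb6.

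Asb13 was the detected member with a difference above 0. Its level was 5.75 in posterior and 5.70 in anterior tissue (difference 0.06, local spread 0.18). In human cancer cells ASB13 is known to target the transcription factor SNAI2. The 5 detected members other than Asb4 thus lay on both sides of 0, with Asb3 furthest from it.

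The remaining 3 measured members, Asb1, Asb5 and Asb11, were under the floor in both arrays, and no fold is given for them. Asb1 had a level of 4.79 in posterior and 4.63 in anterior tissue. Asb5, a gene of skeletal muscle, had 4.24 in posterior and 4.55 in anterior tissue. Asb11, known in zebrafish from neural and muscle progenitors, had 4.07 in posterior and 3.92 in anterior tissue. Their measured differences of 0.17, -0.31 and 0.15 were all under 1.3-fold.

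**Figure D2:**
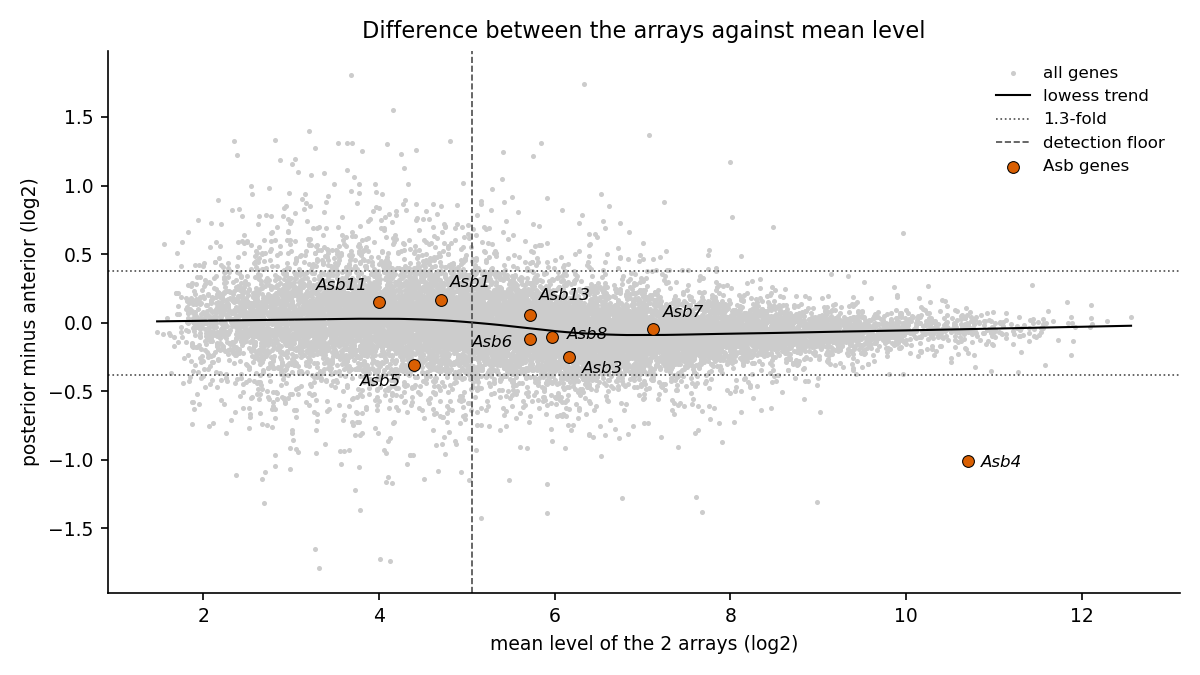
Difference between the arrays (posterior minus anterior, log2) against the mean of both arrays (log2) for all 14860 genes in grey, with the 9 measured Asb genes in colour, the lowess trend as a line, 1.3-fold as dotted lines and the detection floor as a dashed line. Asb4, at a mean level of 10.71 and a difference of -1.01, lies apart from the grey points of its level, and the other Asb genes lie within the dotted lines.

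Of 8 further Asb genes outside the list, 7 were measured and 1, Asb9, was detected. Asb9, known in humans for binding brain creatine kinase, had a level of 5.33 in posterior tissue and 4.88 in anterior tissue, where the value lay under the floor. By its measured values it was 1.37-fold higher in posterior tissue, but against the floor at least 1.21-fold, which is under the threshold. Asb10, Asb12, Asb15, Asb16, Asb17 and Asb18 were under the floor in both arrays, with differences from -0.17 to 0.28.

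The genes nearest to Asb4 by their levels in both arrays, measured as the Euclidean distance of the 2 log2 values, were Fkbp2 (0.50), Rps27l (0.55), Selenoh (0.55), Skp1 (0.57) and Atp5mpl (0.57). This distance compares the brightness of different probe sets, which depends on the probes as well as on the RNA, so it describes these arrays and not likeness of expression. Fkbp2, an isomerase of the endoplasmic reticulum, had a level of 10.63 in posterior and 10.95 in anterior tissue, or 1.25-fold lower in posterior tissue. The other 4 were 1.14-fold to 1.18-fold lower in posterior tissue, and none of the 5 was past 1.3-fold.

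Of the ligase that Asb proteins join and the related cullin 2 ligase, most core genes differed little between the tissues. The list of 9 core genes holds the elongins and genes of the cullin 5 ligase, and also Cul2, Rbx1 and Vhl of the cullin 2 ligase. All 9 were detected, and 1 was past 1.3-fold lower in posterior tissue and 0 higher. Among the 9017 detected genes, 4.68% were past 1.3-fold toward anterior and 1.85% toward posterior tissue. Cul5, the scaffold, had a level of 8.10 in posterior and 8.10 in anterior tissue. The elongin genes Elob and Eloc differed by -0.12 and -0.06. Rnf7, the RING subunit, had a level of 12.17 in posterior and 12.04 in anterior tissue (difference 0.13). Asb4 was chosen for its difference between these same arrays, so nothing is read from the smaller differences of these partners.

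Arih2 was the exception. It encodes an ubiquitin ligase that in human cells works with cullin 5 to attach the first ubiquitin. Its level was 8.15 in posterior and 8.77 in anterior tissue, 1.54-fold lower in posterior tissue (difference -0.62). Vhl, the receptor of the related cullin 2 ligase, had the largest posterior lean of the core at 0.19, with Cul2 itself at -0.20. The median of the 9 core genes was -0.03 as deposited, beside -0.07 over all detected genes. With the trend of the difference with level removed, the median of the core was 0.04, beside -0.0002 over all detected genes.

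Cullins are switched on by the small protein Nedd8 and off by its removal. Of 19 measured genes of this cycle, all detected, 1 was past 1.3-fold higher and 0 lower in posterior tissue, with a median of -0.06. Among all detected genes 1.85% were higher and 4.68% lower by that much, with a median of -0.07, so the cycle was near the background. Dcun1d2, of a family that helps to attach Nedd8, had a level of 6.03 in posterior and 5.56 in anterior tissue, 1.39-fold higher in posterior tissue. Its relative Dcun1d4 had 7.53 in posterior and 7.91 in anterior tissue, a difference of -0.38 just inside 1.3-fold. Nedd8 itself differed by -0.10 and Cops5, the subunit that cleaves it off, by -0.06.

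Other SOCS-box genes, many of which encode substrate receptors too, were compared next. Of 16 measured, 12 were detected and 0 were past 1.3-fold in either direction, with a median of -0.02, beside 8.57% and a median of -0.04 over all genes. A count of 0 in a list of this size is near that background. Spsb4, a substrate receptor, had a level of 6.42 in posterior and 6.09 in anterior tissue, 1.26-fold higher in posterior tissue. Socs6, of the family that dampens cytokine and receptor tyrosine kinase signals, had 9.24 in posterior and 9.54 in anterior tissue, 1.23-fold lower in posterior tissue. Spsb4 and Socs6 were the detected genes of this list furthest in each direction, with differences of 0.34 and -0.30.

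Proteins reported as substrates or partners of Asb proteins form the last list. Of 12 genes 7 were measured, of which 2 were past 1.3-fold lower and 0 higher in posterior tissue, beside 4.8% lower and 3.77% higher over all genes. Id2, an inhibitor of bHLH factors and a reported Asb4 substrate in mouse trophoblast, had a level of 7.74 in posterior and 8.25 in anterior tissue, 1.43-fold lower in posterior tissue. Snai2, a repressor of epithelial genes, had 7.02 in posterior and 7.69 in anterior tissue, 1.59-fold lower in posterior tissue. Id2 thus leaned the same way as Asb4 at the RNA level; protein was not measured.

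Hif1an, the oxygen-dependent hydroxylase that modifies Asb4, had 5.61 in posterior and 5.86 in anterior tissue (difference -0.25), under 1.3-fold. Sh2b2 had the largest posterior lean among detected genes of the list, at 0.15. The list median was -0.20, beside -0.04 over all genes. Among its 6 detected genes the median was -0.22, beside -0.07 over all detected genes. With the trend with level removed, the list median was -0.12, beside -0.0002 over all genes. The list was chosen with earlier results of these data known. Irs4, the reported Asb4 substrate in hypothalamus, had no single-symbol probe set here.

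**Figure D3:**
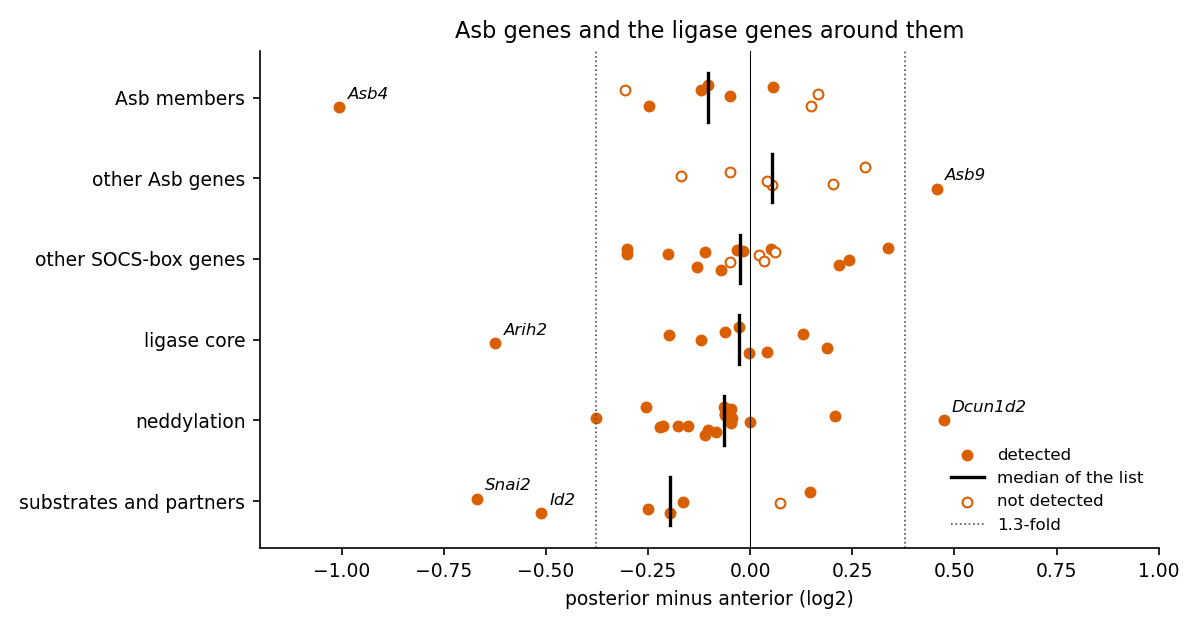
Difference between the arrays (posterior minus anterior, log2) for the measured Asb genes and for 5 lists of genes around them, 1 point per gene, filled where detected and open where not, with list medians as vertical bars and 1.3-fold as dotted lines; vertical scatter within a list has no meaning. Asb4 (-1.01) is further from 0 than any other gene shown, followed by Snai2 (-0.67) and Arih2 (-0.62).

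Since Asb4 lies in an imprinted region of chromosome 6, the 10 protein-coding genes on each side of it were compared, in the gene order of a GRCm38 table. Of these 20 genes 16 were measured and 12 detected. By measured values 3 were past 1.3-fold lower in posterior tissue and 0 higher, or 2 and 0 among the 12 detected, beside 4.8% lower over all genes and 4.68% lower over all detected genes. The genes next to Asb4 on either side were not past 1.3-fold. Pon2, a paraoxonase and the neighbour on the upstream side, had the same level of 6.04 in posterior and anterior tissue, and Pdk4, a kinase of pyruvate dehydrogenase on the downstream side, was under the floor in both arrays. Pon3, the next gene after Pon2, also had identical values. Both are among 493 genes with exactly the same deposited value in both arrays, and whether summarisation gave these equal values was not tested.

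The detected neighbours past 1.3-fold were Col1a2 and Dlx5. Col1a2, a fibrillar collagen, had a level of 7.35 in posterior and 8.00 in anterior tissue, 1.57-fold lower in posterior tissue. Dlx5, a homeobox gene, had 6.08 in posterior and 6.46 in anterior tissue, 1.31-fold lower in posterior tissue, and fell inside 1.3-fold once that trend with level was removed (-0.31), with median-centred arrays (-0.35) and with an offset of 32 on the linear scale (-0.27). Tac1, a neuropeptide precursor, had 3.81 in posterior and 4.84 in anterior tissue and was under the floor in both.

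The imprinted gene Sgce, a sarcoglycan expressed from the paternal copy, had 7.50 in posterior and 7.73 in anterior tissue (difference -0.22), and its neighbour Peg10 had no single-symbol probe set here. The median difference of the 16 neighbours was -0.14, beside -0.04 over all genes. Among the 12 detected neighbours it was -0.13, beside -0.07 over all detected genes. With the trend with level removed, the median of the 16 was -0.08, beside -0.0002 over all genes.

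**Figure D4:**
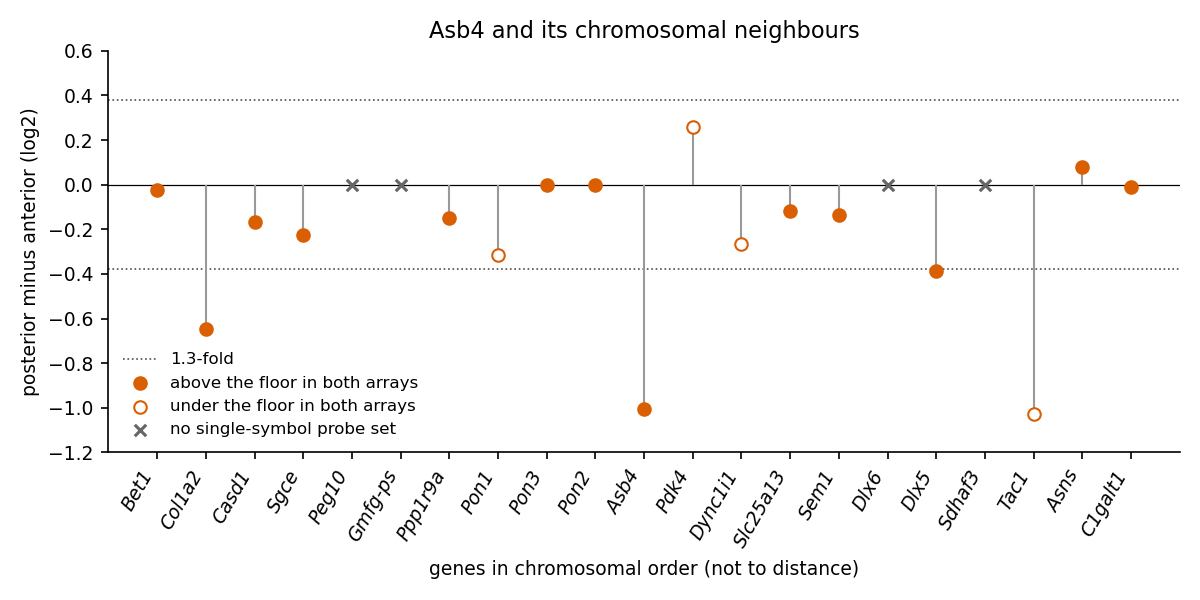
Difference between the arrays (posterior minus anterior, log2) for Asb4 and the 10 protein-coding genes on each side of it, in chromosomal order and not to distance; filled points are above the floor in both arrays, open points under it in both, crosses have no single-symbol probe set, and dotted lines mark 1.3-fold. Asb4 (-1.01) stands beside Pon2 and Pon3, which are among the genes with exactly equal deposited values in both arrays and so lie at 0.

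Markers of the cells in the buds were set beside Asb4. In such pooled tissue, fewer cells of a type and less RNA per cell cannot be told apart. All 6 limb mesenchyme markers were detected, among them Prrx1, with a level of 10.56 in posterior and 10.69 in anterior tissue. Of the 6, Prrx2, Twist1 and Msx1 were past 1.3-fold lower and Meox2 past 1.3-fold higher in posterior tissue, beside 8.57% of all genes past it in either direction. Twist1 fell inside 1.3-fold with the trend with level removed (-0.35) and, barely, with the offset of 32 (-0.38). The summed linear level of the list was 2555 in posterior and 2887 in anterior tissue. Such sums weight genes by the brightness of their probe sets, Prrx1 being the brightest of the 6. They do not measure the amount of a cell type. The part of the mesenchyme markers in the difference of Asb4 was not tested. Of 9 endothelial markers 8 were detected and 0 were past 1.3-fold, with a summed linear level of 974 in posterior and 998 in anterior tissue. Of 7 measured muscle markers 2 were detected, Pax3 and Myod1, and Myod1 was 1.33-fold higher in posterior tissue by measured values, with an anterior value under the floor and a bound of 1.03-fold. In the other lists the genes past 1.3-fold by measured values were 1 of 8 for ectoderm (Krt5, higher in posterior tissue), 1 of 4 for red blood cells (Klf1, not detected), 2 of 6 for macrophages (Tyrobp, and C1qa, which was not detected, both lower), 2 of 5 for neural cells (Nefm higher, Dcx lower) and 2 of 7 for body wall and trunk (Foxc2 and Pax1, both lower). Pax1 fell inside 1.3-fold with the trend removed (-0.37) and with median-centred arrays (-0.36). Such counts stand beside 8.57% over all genes and 6.53% over detected genes, and none was tested.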

How the data were processed

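Gene expression was measured in 1 posterior and 1 anterior pool. The deposited values are log2 RMA levels per transcript cluster from Affymetrix Expression Console at the core gene level, per the labels' descriptions. Build mm9 is named in the submitters' processing notes, with no software version. In its usual form RMA equalises the distributions of arrays, so it removes an overall difference in brightness and can compress ratios at low levels. Identical values in both arrays were deposited for 493 of 14860 genes (3.32%), 0 of the measured Asb members among them, and the cause was not tested.

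The table held 23332 probe sets, of which 14996 had 1 gene symbol, 1019 several and 7317 none in the platform annotation. Entrez identifiers of 14941 single-symbol probe sets, all 9 measured members among them, matched a GRCm38 gene table, used for names and gene order. Probe sets of a gene were averaged (each measured member had 1). Both columns matched a sample, and 0 others were present. Differences, the floor, local spread (1.4826 times the median absolute deviation) and lowess trend (fraction 0.3) were computed with Python 3.11.15 and statsmodels 0.14.6. Differences, local spread and trend were tried on simulated data, and the floor was not. Members and lists were chosen with earlier results of these data known. Named were all members, the 5 genes nearest to Asb4, of each of the 5 ligase lists the detected genes past 1.3-fold and the furthest in each direction, neighbours of Asb4 past 1.3-fold or next to it, 5 genes that check the labels, and Prrx1; others, marker genes among them, illustrate a list or complete a count, chosen once their values were known. Alternatives were detected genes only, median-centred arrays, removal of the trend with level, the brightest probe set, an offset of 32 on the linear scale and a floor at the 99th percentile.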

Additional observations from a re-analysis of the deposited data

How the results depend on the processing

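Asb4 was detected and had 1 probe set, so detected genes only and the brightest probe set could not change its difference of -1.01. With median-centred arrays, the trend removed or the offset of 32, Asb4 stayed past 1.3-fold, with differences from -0.99 to -0.96. It remained the only measured member past 1.3-fold in each. Asb7 crossed 0 when the trend with level was removed (0.04), far inside 1.3-fold; the direction of the other members was kept. With the floor at the 99th percentile (6.01), 4 instead of 6 members were detected. With an offset of 32, which damps low levels by construction, the posterior calls fell to 0 for the further Asb genes and to 0 for the Nedd8 cycle, where Asb9 and Dcun1d2 had passed; Hand2 (0.38), Alx4 (-0.37), Nefm (0.35), Myod1 (0.20), Klf1 (0.22), C1qa (-0.19) and Pax1 (-0.24) also came inside 1.3-fold. With the trend removed, 1 other SOCS-box gene, Spsb4, passed toward posterior tissue. Over all genes, 560 passed toward posterior and 713 toward anterior tissue (56.0% anterior). The numbers were 167 and 422 among detected genes, which are fewer by construction, 60 and 157 with the offset, 717 and 566 (44.1% anterior) with median-centred arrays, and 573 and 613 with the trend removed. Among detected genes the anterior share was 71.6% as deposited, 59.3% with median-centred arrays and 55.6% with the trend removed. No paired analysis was possible because each tissue has 1 array. With no replicate array, no array could be left out, and signal near the floor limits Asb1, Asb5, Asb11 and Asb9.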

Other observations

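A probe set annotated to both Asb14 and Dnah12, which cannot be assigned to either gene, had the same level of 3.57 in posterior and anterior tissue, under the floor.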
